A study of Homo sapiens with 20 samples.

Results

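The receptors for the death ligand TRAIL lie together on chromosome 8, and their RNA was followed here in HL60 cells with their ligand and the proteins that carry the signal inside the cell. The set held 8 of the 28051 genes listed, namely the ligand gene TNFSF10, the receptor genes TNFRSF10A, TNFRSF10B, TNFRSF10C and TNFRSF10D, and the signalling genes FADD, CASP8 and CFLAR. These members were chosen by symbol because the receptors' RNA had been seen to differ between the genotypes, so genotype differences of the 8 members are given as descriptions without a test. HL60 is an established human cell line from acute myeloid leukaemia, and all-trans retinoic acid (ATRA) drives it towards neutrophil-like cells. The study asked how loss of hexokinase 3 (HK3) alters the response of such cells to ATRA. RNA was sequenced in 12 libraries, 3 in each of 4 groups, and accessible chromatin (ATAC) in 8 libraries, 2 in each of the same groups. The groups were Cas9 expressing control cells or HK3-null cells, each treated for 36 h with 1 µM ATRA or with 0.01% DMSO, the solvent. All HK3-null libraries carry the same line label, and knockout lines were grown from single cells after delivery of Cas9 and guide by a lentivirus, so HK3 loss and the particular clone cannot be told apart. Nothing in the labels ties the replicates to separate lines, and p-values measure the spread between these libraries.

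TRAIL is a secreted or membrane-bound cytokine of the tumour necrosis factor family. It binds the death receptors DR4 (TNFRSF10A) and DR5 (TNFRSF10B), whose intracellular death domain recruits the adaptor FADD and the initiator caspase CASP8, while c-FLIP, the product of CFLAR, competes with CASP8 in that complex. The decoy receptors DcR1 (TNFRSF10C) and DcR2 (TNFRSF10D) bind the ligand but lack a working death domain, and myeloid cells are known to change TRAIL and its receptors as they mature.

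RefSeq start-site windows (GRCh38.p14) were used for the members that the table covers. The stretch from 250 to 51 bases before the annotated start is shown for the ligand and for the initiator caspase, the gene at which the pathway begins and the one at which its signal becomes proteolytic. For CASP8 the most upstream start is shown. Other CASP8 starts are annotated, with windows from chr2:201257785 and chr2:201260286, and which start these cells use was not tested. Capitals mark the only match in these windows to 3 motifs searched on both strands, AGGTCA (a retinoid receptor half-site), GAGGAA (the PU-box of the myeloid factor PU.1) and 2 copies of GAAA set 2 bases apart (the core of an interferon-stimulated element). The match in TNFSF10 was to the interferon motif, on the strand opposite to the gene and beginning 187 bases before the start. Of 35116 such windows in the reference table, 2.39% held the interferon motif, 9.67% the half-site and 19.1% the PU-box.
TNFSF10 (chr3:172523481-172523680, minus strand): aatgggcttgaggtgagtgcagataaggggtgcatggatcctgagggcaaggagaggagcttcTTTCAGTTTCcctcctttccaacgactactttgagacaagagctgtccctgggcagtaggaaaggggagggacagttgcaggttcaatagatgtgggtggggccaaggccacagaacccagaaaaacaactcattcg
CASP8 (chr2:201233213-201233412, plus strand): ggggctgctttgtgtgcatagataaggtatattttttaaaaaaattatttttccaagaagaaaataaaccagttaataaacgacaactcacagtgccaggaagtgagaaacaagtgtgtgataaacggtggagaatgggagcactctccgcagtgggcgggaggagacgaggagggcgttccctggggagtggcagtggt

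The libraries carried promyelocyte RNA, and libraries with the HK3-null label held, on average, no less HK3 RNA than the control. Totals lay between 29053838 and 31548189 normalized counts per library. The 8 promyelocyte markers, led by the granule peroxidase MPO, summed to between 555983 and 837442, and the T-cell genes CD3D and CD3G together to between 0 and 2. Of the 3 B-cell markers MS4A1 was at 0 throughout, and PAX5 had 70 to 119 in the HK3-null libraries against 0 to 2 in the control. The B-cell sum was accordingly 93 to 120 in HK3-null DMSO and 75 to 92 in HK3-null ATRA, against 1 to 6 and 2 to 6 in the control groups. The 3 T-cell markers summed to 5 to 8 and 9 to 12 in the HK3-null groups, against 2 to 4 and 1 to 4 in the control groups, and the part of these sums in the results below was not tested. HK3 itself had 302 to 346 normalized counts in HK3-null DMSO against 65 to 105 in the control, and 1285 to 1975 against 1298 to 1850 in ATRA. HK3-null is used throughout as the label gives it, and counts over a whole gene cannot show a small edit. Replicate 1 of Cas9 control DMSO stood apart, with 16750 genes above 0 against 15031 to 15801 elsewhere and 321 normalized counts of the collagen gene COL1A1.

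TNFRSF10B was the receptor with the most RNA in the HK3-null cells. Its normalized counts (reads scaled between libraries, as deposited) were 280, 247 and 161 in control DMSO and 174, 156 and 151 in control ATRA, against 2231, 2254 and 2136 in HK3-null DMSO and 1929, 2106 and 2043 in HK3-null ATRA. The groups of the 2 genotypes did not overlap, and the lowest HK3-null library lay far above the highest control library. Means were 9.62 times as high in DMSO and 12.6 times as high in ATRA. In bulk RNA, fewer cells with a transcript and less RNA per cell cannot be told apart.

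TNFRSF10C, the decoy held to the membrane by a lipid anchor, was close to absent in the control. It had 4, 1 and 2 normalized counts in control DMSO, 6, 10 and 5 in control ATRA, 29, 43 and 32 in HK3-null DMSO, and 131, 120 and 130 in HK3-null ATRA. The 4 groups did not overlap, and the control values rest on very few reads. Summed over libraries, the ratio of HK3-null to control was 14.9 in DMSO (95% interval 6.96 to 37.9) and 18.1 in ATRA (11.7 to 29.7), where the intervals cover counting error only. This gene passed the filter on low values through its HK3-null libraries, and LOC254896 overlaps its start, so reads shared by both genes cannot be divided.

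TNFRSF10A and TNFRSF10D differed less between the genotypes. TNFRSF10A had 268, 258 and 190 in control DMSO, 202, 153 and 108 in control ATRA, 602, 555 and 521 in HK3-null DMSO, and 463, 395 and 311 in HK3-null ATRA. All HK3-null libraries lay above all control libraries, by 2.34 times in DMSO and 2.53 times in ATRA as ratios of means. TNFRSF10D, the decoy with a shortened death domain, had 157, 89 and 105 in control DMSO, 79, 57 and 64 in control ATRA, 276, 266 and 263 in HK3-null DMSO, and 481, 473 and 441 in HK3-null ATRA. All HK3-null ATRA libraries lay above those of the other groups, and the ratio of means between genotypes was 2.29 in DMSO and 6.98 in ATRA.

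**Figure D1:**
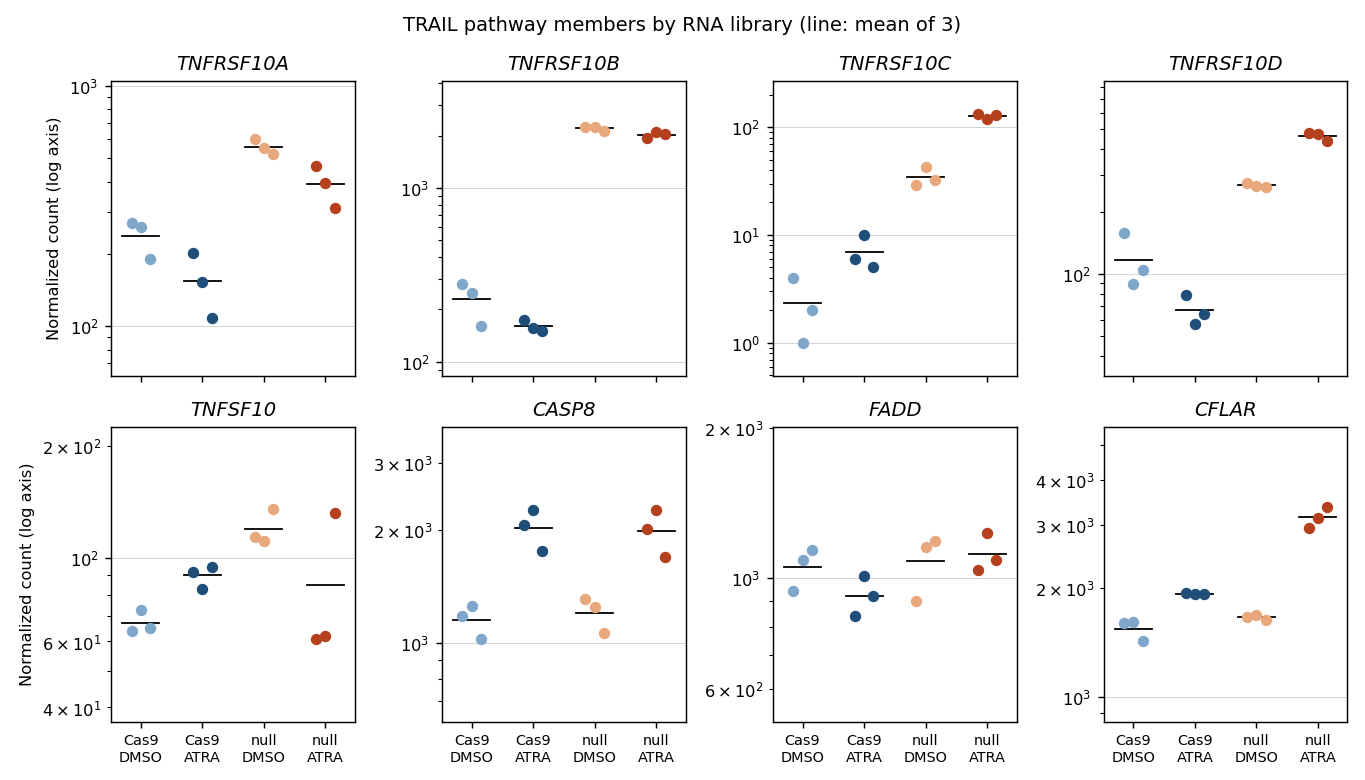
Normalized count of each member (log axis, one panel per gene) in the 12 RNA libraries, by group, with points for libraries and lines for the mean of 3. TNFRSF10B lies between 1929 and 2254 in HK3-null cells against 151 to 280 in the control. CASP8 overlaps between genotypes at both treatments. Of the tested chromosome 8 genes, 94.9% had a log2 change above 0 between genotypes in DMSO.

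Because chromosome 8 as a whole was higher in the HK3-null libraries, each receptor was set against it. Over the 433 tested genes of chromosome 8 the median log2 change between genotypes was 1.09 in DMSO and 1.06 in ATRA, with 94.9% and 93.3% of them above 0. Over the 12724 tested genes placed elsewhere the medians were -0.015 and -0.011. The rise was spread along the chromosome, since the medians of 10-Mb stretches in DMSO ran from 0.94 to 1.41.

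Against that general rise the receptors differed from one another. TNFRSF10A (log2 change 1.24 in DMSO and 1.36 in ATRA) lay 0.15 and 0.30 above the chromosome median. TNFRSF10D lay 0.15 above it in DMSO and 1.75 above it in ATRA. TNFRSF10B lay 2.21 and 2.60 above it, equal to 4.64 and 6.07 times the chromosome's typical ratio, and TNFRSF10C 3.01 and 3.18 above it, equal to 8.03 and 9.09 times. In DMSO, 158 of the 433 chromosome 8 genes changed more than TNFRSF10A, 159 more than TNFRSF10D, 40 more than TNFRSF10B and 33 more than TNFRSF10C. Of those last 40 and 33 genes, 28 and 26 had a library at 0, where the deposited scale makes a log2 change very large. Counting just the 356 chromosome 8 genes that averaged 50 or more normalized counts, 3.65% changed more than TNFRSF10B in DMSO and 3.37% in ATRA. In ATRA, 4.78% of those 356 genes changed more than TNFRSF10D, against 32.6% in DMSO.

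**Figure D2:**
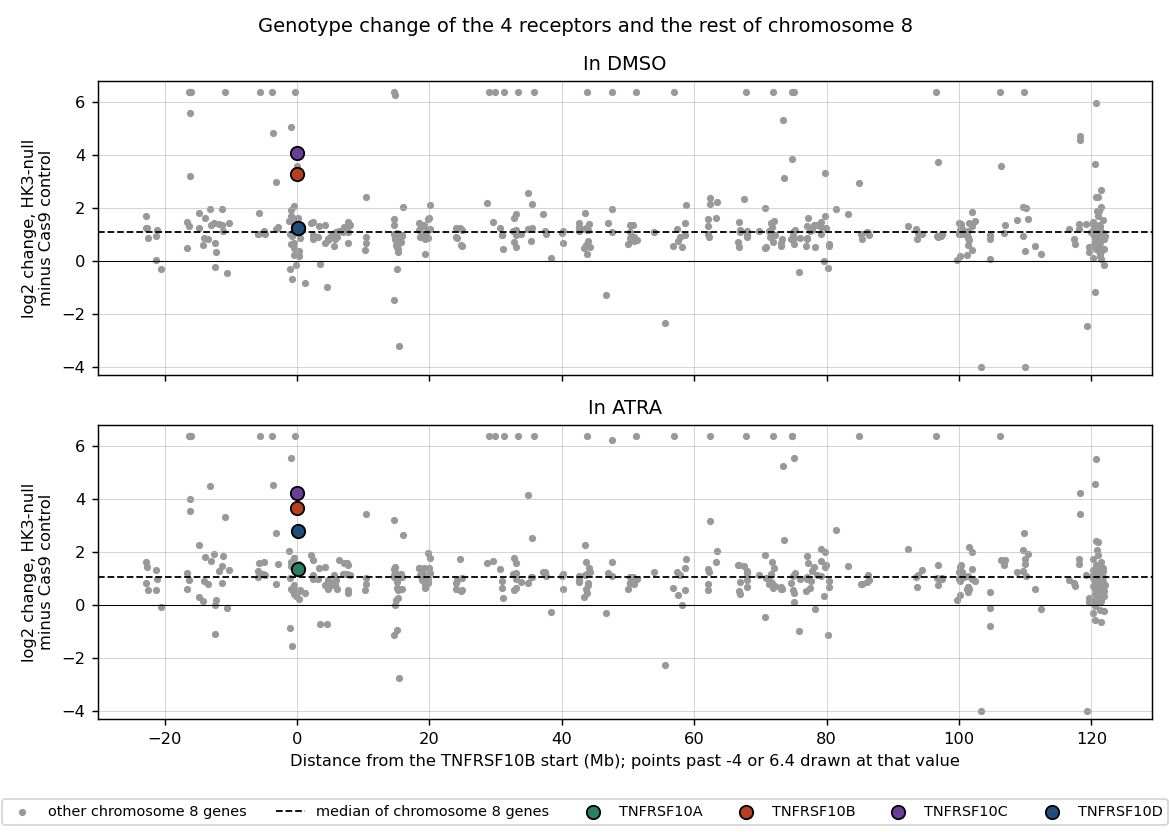
Log2 change between HK3-null and Cas9 control (vertical) for the 433 tested genes of chromosome 8 by distance from the TNFRSF10B start in Mb (horizontal), in DMSO above and in ATRA below, with the median dashed. TNFRSF10A lies near the median in both panels, TNFRSF10D only in DMSO, and TNFRSF10B and TNFRSF10C lie above it in both, while 27 points in DMSO and 25 in ATRA lie beyond the axis and are drawn at 6.4 or -4.

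The immediate neighbours did not all share the receptors' pattern. Within 1 Mb of the 4 receptors 22 other genes were tested, with a median log2 change of 1.01 in DMSO and 1.03 in ATRA. FAM160B2 had means of 14.3 normalized counts in control DMSO and 464 in HK3-null DMSO, a log2 change of 5.07. EGR3, an early growth response factor, was at 0 in control DMSO and at a mean of 63.7 in HK3-null DMSO. LOC254896, beside TNFRSF10C, had a log2 change of 3.60 in DMSO and 3.83 in ATRA at means of at most 32.3 normalized counts. By contrast RHOBTB2, which touches TNFRSF10B, had log2 changes of -0.15 and 0.36, and the zinc transporter gene SLC39A14 had -0.67 and -1.52. CHMP7, LOC389641, BIN3, ENTPD4, PPP3CC, NUDT18, BMP1 and SORBS3 had changes of 1.06 to 2.07 in DMSO, and POLR3D, SLC25A37, CCAR2, REEP4, C8orf58, R3HCC1, PDLIM2, LOXL2 and NPM2 had changes of -0.29 to 0.96.

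The order of the receptors' levels also differed between the genotypes. Per kilobase of transcript, control DMSO had means of 88.7 normalized counts for TNFRSF10A, 57.4 for TNFRSF10B, 33.1 for TNFRSF10D and 1.67 for TNFRSF10C. In HK3-null DMSO the level of TNFRSF10B was 552 ± 15.7 (SD, n = 3) per kilobase against 208 ± 15.1 for TNFRSF10A, 75.9 ± 1.93 for TNFRSF10D and 24.9 ± 5.28 for TNFRSF10C. In HK3-null ATRA, TNFRSF10A (145 ± 28.3) and TNFRSF10D (132 ± 5.99) lay within their spread of each other. TNFRSF10B made up 38.7% of the 4 receptors' normalized counts in control DMSO and 71.9% in HK3-null DMSO. Exact sharing of sequence was small, with 0.273% of the 42-base windows of TNFRSF10C found in TNFRSF10D and none shared by the other receptor pairs. TNFRSF11B, a soluble receptor that also binds TRAIL, had 0 to 2 normalized counts in every library.

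ATRA moved the receptors in different directions. A gene passed where the adjusted p of limma (a linear model fitted over all 13256 tested genes) was under 0.05. In the control, 20.3% of all tested genes passed as higher in ATRA and 21.3% as lower. There, TNFRSF10A (log2 change -0.66, SE 0.22, adjusted p = 0.0345), TNFRSF10B (-0.48, SE 0.16, adjusted p = 0.033) and TNFRSF10D (-0.78, SE 0.19, adjusted p = 0.00641) fell. TNFRSF10C had a log2 change of 1.74 (SE 0.46) at 10 or fewer normalized counts per library, which is given without a call because the gene passed the filter on low values through the HK3-null groups alone. In this unpaired fit both death receptors rest on thin margins, since leaving out either of replicates 2 and 3 of control ATRA, or either of replicates 1 and 2 of control DMSO, took the adjusted p of TNFRSF10A to between 0.0698 and 0.129 and that of TNFRSF10B to between 0.0826 and 0.128. With all libraries paired by replicate number, limma gave an adjusted p of 0.000627 for TNFRSF10A and 0.0121 for TNFRSF10B.

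In HK3-null cells, where 24.0% of all tested genes passed as higher and 25.1% as lower, both decoys rose. TNFRSF10C had a log2 change of 1.89 (SE 0.46, adjusted p = 0.00517) and TNFRSF10D one of 0.79 (SE 0.19, adjusted p = 0.00476). TNFRSF10B had -0.12 (95% interval -0.48 to 0.23, adjusted p = 0.557). TNFRSF10A had -0.54 (adjusted p = 0.0665), which passed when libraries were paired by replicate number (adjusted p = 0.00196). It also passed without replicate 1 or 3 of control ATRA or replicate 1 of HK3-null ATRA (adjusted p of 0.0289 to 0.0459).

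The ATRA responses of TNFRSF10D differed between the genotypes. The difference of the log2 changes, HK3-null minus control, was 1.58 (SE 0.27, adjusted p = 0.00365), as the RNA fell in the control and rose in the HK3-null cells. Over all genes 4.48% passed with a positive difference and 4.64% with a negative one. For TNFRSF10C the difference was 0.15 (95% interval -1.28 to 1.58), for TNFRSF10A 0.12 (-0.57 to 0.82) and for TNFRSF10B 0.36 (-0.14 to 0.86), and none of these passed. TNFRSF10B passed only without replicate 3 of control DMSO (0.59, adjusted p = 0.0127).

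**Figure D3:**
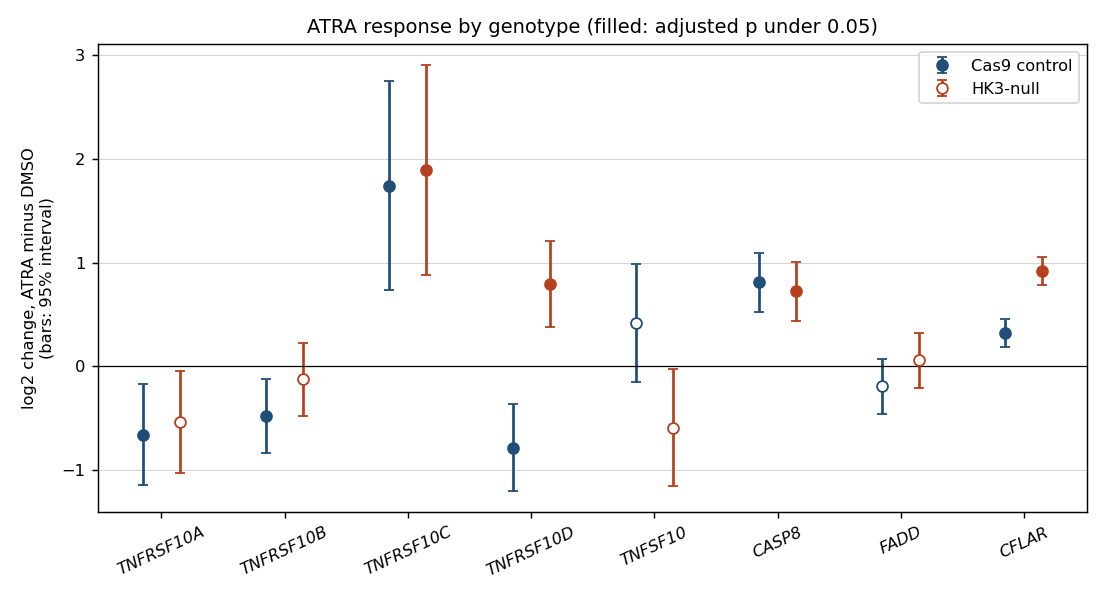
Log2 change between ATRA and DMSO for each member in the Cas9 control and in HK3-null cells (3 libraries per group), with 95% intervals and filled points for an adjusted p under 0.05. The control point of TNFRSF10C is filled by that rule but is not a call, as the gene passed the filter on low values through the HK3-null groups alone. TNFRSF10D lies at -0.78 in the control and 0.79 in HK3-null cells, and CFLAR at 0.32 and 0.92, while CASP8 and TNFRSF10C lie close together in the 2 genotypes.

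The share of decoys among the receptors does not depend on the scaling of a library. TNFRSF10C and TNFRSF10D together made up 22.7%, 15.1% and 23.4% of the receptors' normalized counts in control DMSO and 18.4%, 17.8% and 21.0% in control ATRA. In HK3-null cells they made up 9.72%, 9.91% and 9.99% in DMSO and 20.4%, 19.2% and 19.5% in ATRA, without overlap. The change with ATRA was -1.30 percentage points in the control (exact permutation p = 0.8) and 9.81 in HK3-null cells (exact permutation p = 0.1, the smallest that 3 against 3 libraries allow, both tests two-sided). TNFRSF10B made up 71.1%, 72.3% and 72.4% in HK3-null DMSO and 64.2%, 68.1% and 69.8% in HK3-null ATRA (exact permutation p = 0.1).

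The ligand was modestly expressed. TNFSF10 had 64, 73 and 65 normalized counts in control DMSO, 92, 83 and 95 in control ATRA, 114, 111 and 135 in HK3-null DMSO, and 61, 62 and 132 in HK3-null ATRA. Replicate 3 of HK3-null ATRA lay with the DMSO libraries of that genotype and the other two below them. With limma the log2 change in ATRA was 0.42 in the control (adjusted p = 0.219) and -0.59 in HK3-null cells (adjusted p = 0.0786), and the difference of responses was -1.01 (adjusted p = 0.123). Paired by replicate number, the HK3-null change (adjusted p = 0.0403) and the difference (adjusted p = 0.0448) passed, and the HK3-null change also passed after quantile normalization (-0.76, adjusted p = 0.032). Without replicate 3 of HK3-null ATRA the control change (0.42, adjusted p = 0.0306), the HK3-null change (-0.96, adjusted p = 0.000521) and the difference (-1.38, adjusted p = 0.00247) passed. Between genotypes the log2 change was 0.83 in DMSO and -0.18 in ATRA, the latter being -0.55 without replicate 3 of HK3-null ATRA and 0.01 without replicate 1.

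Among the signalling genes, CASP8 rose with ATRA in both genotypes. Its normalized counts were 1178, 1251 and 1025 in control DMSO, 2061, 2250 and 1759 in control ATRA, 1305, 1241 and 1058 in HK3-null DMSO, and 2009, 2260 and 1693 in HK3-null ATRA. With limma the log2 change was 0.81 (adjusted p = 0.000432) in the control and 0.72 (adjusted p = 0.000673) in HK3-null cells, and the difference was -0.09 (95% interval -0.49 to 0.31).

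CFLAR rose more in HK3-null cells. It had 1601, 1607 and 1422 normalized counts in control DMSO, 1937, 1921 and 1923 in control ATRA, 1663, 1684 and 1631 in HK3-null DMSO, and 2933, 3131 and 3360 in HK3-null ATRA. The HK3-null ATRA libraries lay above all others, and the DMSO groups of the genotypes lay near each other. With limma the log2 change was 0.32 (SE 0.06, adjusted p = 0.00168) in the control and 0.92 (SE 0.06, adjusted p = 3.81e-07) in HK3-null cells, a difference of 0.60 (SE 0.09, adjusted p = 0.00151). The ratio of CFLAR to CASP8 went from 1.34 ± 0.05 (SD, n = 3) to 0.962 ± 0.12 in the control (exact permutation p = 0.1) and from 1.39 ± 0.14 to 1.61 ± 0.33 in HK3-null cells (exact permutation p = 0.4).

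FADD, the adaptor, had 942, 1086 and 1137 normalized counts in control DMSO, 841, 1008 and 919 in control ATRA, 901, 1152 and 1187 in HK3-null DMSO, and 1038, 1234 and 1086 in HK3-null ATRA. The genotypes overlapped in DMSO, and in ATRA the lowest HK3-null library lay just above the highest control library. With limma its log2 change in ATRA was -0.19 in the control (adjusted p = 0.222, or 0.0261 paired by replicate number) and 0.06 in HK3-null cells (adjusted p = 0.719).

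The wider death receptor pathway was followed by a list of 39 further genes, of which 35 were tested. In the control 12 rose and 8 fell with ATRA, beside 20.3% and 21.3% of all tested genes. The necroptosis kinase gene RIPK3 (log2 change 1.94), the initiator CASP9 (1.66) and the deubiquitinase CYLD (0.92) rose, whereas the ligand TNF (-1.60) and the receptor TNFRSF21 (-1.58) fell. In HK3-null cells 16 rose and 9 fell, beside 24.0% and 25.1% of all tested genes, including RIPK3 (2.06), CASP9 (1.43) and the caspase-8 relative CASP10 (0.93) among those that rose, and TNFRSF21 (-2.01) and the DNA fragmentation gene DFFB (-0.90) among those that fell. The medians of the 35 were 0.08 and 0.21, beside 0.00 and 0.01 over all tested genes.

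The death effector gene DEDD (difference 0.53, limma adjusted p = 0.0156) was among the 2 of the 35 that responded differently to ATRA in the 2 genotypes by this fit. With libraries paired by replicate number 9 passed, and the count over all genes went from 1209 (9.12% of those tested) to 2898 (21.9%).

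Between genotypes in DMSO, 14 of the 35 were higher in HK3-null cells and 5 lower, where 27.9% and 27.1% of all tested genes passed, and with libraries paired 29 passed in either direction, beside 66.7% of all tested genes. TNF had a mean of 1793 normalized counts in HK3-null DMSO against 142 in the control (log2 change 3.68). TNFAIP3, an inhibitor of TNF signalling (2.22), the apoptosome gene APAF1 (1.21), SHARPIN of the linear ubiquitin ligase (1.20) and RIPK3 (1.07) were higher. SHARPIN lies on chromosome 8 and its change was near that chromosome's median. In ATRA, 17 were higher and 7 lower, where 29.6% and 29.5% of all tested genes passed. TNF (5.10), TNFAIP3 (2.38), APAF1 (1.32), RIPK3 (1.19) and RIPK1, the kinase of the receptor complex (1.04), were then higher.

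Some genes tracked the receptors closely across the 12 libraries of which 6 were HK3-null and 6 control, and this is a description of libraries that share that split. Pearson's r of log2(normalized count + 1) with TNFRSF10B was 0.998 for LTB, which encodes lymphotoxin beta, 0.996 for RTCA and 0.995 for PRRG1. With TNFRSF10C it was 0.990 for SLC45A4, 0.989 for BST1 and 0.986 for LST1. With TNFRSF10D it was 0.993 for the lamin gene LMNA, 0.983 for EDEM2 and 0.983 for GPAT3, and with TNFRSF10A it was 0.990 for NUCB2, 0.989 for TCEB1 and 0.988 for MRPS28. TNFSF10 had looser relations, the closest being HSDL2 (0.868), ZNF605 (0.834) and NFATC2 (0.824).

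Accessible chromatin was available for 8286 regions, all of which differ at least 1.65 times between the genotypes in ATRA, so the genotype difference in ATRA selected them and is not tested here. The contrasts of ATRA with DMSO share the ATRA libraries with that selection, so single member regions are given there without a test. Of these regions 14 listed a member, 13 for the 4 receptors and 1 for CFLAR, and 13 of the 14 had enough signal (fragment density per region, averaged over libraries) to be tested. None listed TNFSF10, CASP8 or FADD, which says nothing of regions outside the selection.

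Most regions at the receptors were more accessible in HK3-null cells. In DMSO, 10 of the 12 tested receptor regions were higher with limma, as were 42.7% of all 6214 tested regions, while 43.9% were lower. All 12 had been selected as higher in HK3-null ATRA, and of the 3330 tested regions selected on that side 79.8% passed in DMSO, so the count shows nothing particular to the receptors and single regions are given without a test. Chromosome 8 regions moved with them, 781 of 908 passing in either direction and their median log2 change being 1.13. Those 908 regions come from the same selection, so their count and median carry the same limit. At the TNFRSF10B start (chr8:23068830-23069342, covering its first exon) the signal was 48.8 and 53.1 in control DMSO, 45.5 and 34.1 in control ATRA, 116 and 121 in HK3-null DMSO, and 124 and 133 in HK3-null ATRA. Its log2 change in DMSO was 1.21, near the chromosome 8 median, whereas its RNA changed by 3.30. At the TNFRSF10A start (chr8:23224321-23225630) the change was 1.41 and at the TNFRSF10D start (chr8:23163320-23164438) it was 1.04.

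The TNFRSF10C start was the receptor region whose signal rose most with ATRA in both genotypes. Its signal (chr8:23102618-23102960, covering the first exon) was 10.6 and 7.18 in control DMSO, 32.8 and 18.7 in control ATRA, 13.8 and 17.0 in HK3-null DMSO, and 52.4 and 58.8 in HK3-null ATRA. Each pair of ATRA libraries lay above the DMSO pair of its genotype. The log2 change was 1.40 (SE 0.38) in the control and 1.79 (SE 0.38) in HK3-null cells. Both are given without a test, since the region was selected through the same ATRA libraries and high HK3-null ATRA values helped to select it. Of all tested regions, 2.54% passed as higher and 15.6% as lower with ATRA in the control. In HK3-null cells 5.04% passed as higher and 11.8% as lower. Without replicate 1 of control ATRA or replicate 2 of control DMSO the control change was 1.02 or 1.15. Between the genotypes in DMSO the log2 change was 0.74 here (0.49 to 1.00 with 1 library left out) and 0.59 in the region beside it, centred 0.62 kb into the gene (0.05 to 1.13).

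**Figure D4:**
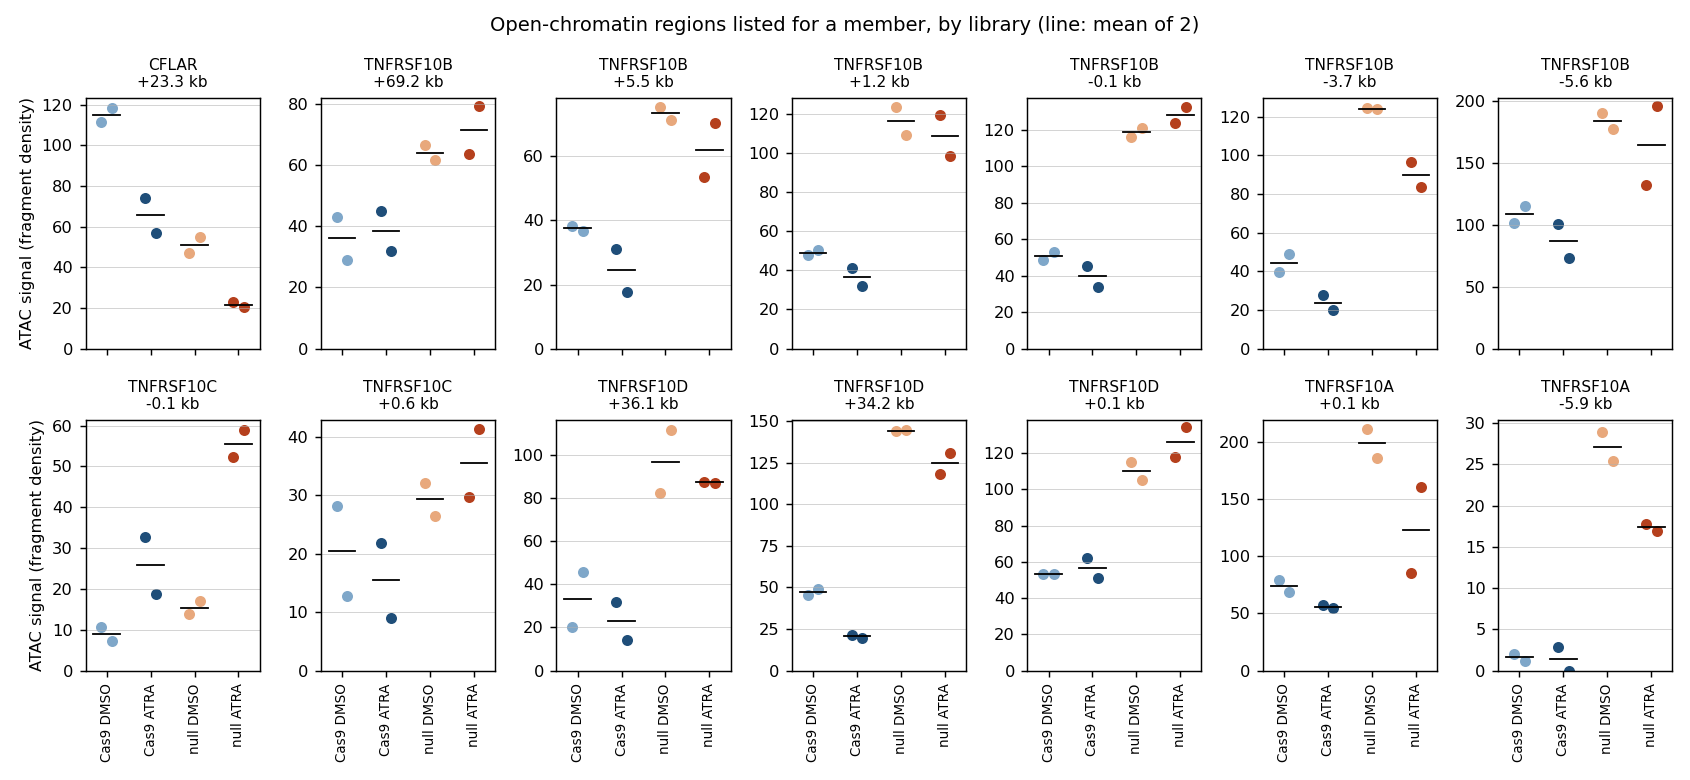
ATAC signal (fragment density, vertical, from 0) in the 8 libraries for the 14 regions that list a member, titled by the distance of the region's centre from that member's start in kb, with lines for the mean of 2. The TNFRSF10C start reaches 52.4 and 58.8 in HK3-null ATRA, the CFLAR region falls from 112 and 118 in control DMSO to 22.8 and 20.5 in HK3-null ATRA, and the other receptor regions separate mainly by genotype. All regions were selected on the genotype difference in ATRA, so that separation was set by the selection.

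The 2 receptor regions that fell most with ATRA in the control are given without a test, since low control ATRA values helped to select them. A region 34.2 kb downstream of the TNFRSF10D start (chr8:23129557-23130077, between annotated genes) had a signal of 45.2 and 49.1 in control DMSO, 21.4 and 19.6 in control ATRA, 144 and 145 in HK3-null DMSO, and 118 and 131 in HK3-null ATRA. Its log2 change with ATRA was -1.16 in the control (-1.22 to -1.10 with 1 library left out) and -0.21 in HK3-null cells. A region centred at -3.66 kb from the TNFRSF10B start (chr8:23072467-23072917) had a log2 change of -0.88 in the control (-1.11 to -0.65 with 1 library left out). With limma, 0 of the 13 tested regions passed for a difference of the ATRA responses between genotypes, beside 0.274% of all tested regions, and 1 of the 13 had an unadjusted p under 0.05, beside 11.2% of all tested regions. A weak region centred at -5.93 kb from the TNFRSF10A start had 2 and 1.20 in control DMSO, 2.90 and 0 in control ATRA, 28.9 and 25.4 in HK3-null DMSO, and 17.8 and 16.9 in HK3-null ATRA, and was not tested.

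The CFLAR region went the other way from CFLAR RNA. This region (chr2:201139158-201139708), within the gene and centred 23.3 kb after its start, had a signal of 112 and 118 in control DMSO, 74.0 and 57.1 in control ATRA, 47.1 and 55 in HK3-null DMSO, and 22.8 and 20.5 in HK3-null ATRA. Between the genotypes in DMSO its log2 change was -1.16, given without a test because the region was selected as lower in HK3-null ATRA and 94.5% of the tested regions selected on that side passed in DMSO. The log2 change of this region with ATRA was -1.20 (SE 0.30) in HK3-null cells (-1.31 to -1.09 with 1 library left out). In the control it was -0.81 (-0.998 to -0.628 with 1 library left out). Both are given without a test, since the region was selected through the same ATRA libraries. Low HK3-null ATRA values helped to select it, which favours a fall in HK3-null cells.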

How the data were processed

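RNA was measured in 12 libraries and accessible chromatin in 8, from HL60 cells grouped by genotype and treatment as the labels give them. The RNA values deposited by the authors are log2 of scaled whole-number read counts per gene (0 written as log2 of 0.001), and DESeq2 and MACS2 are named in the submitters' processing notes without versions. For the RNA aligner and counter, nothing is given in the sources used here, and it is likewise not stated whether counting used strand. The ATAC values deposited by the authors are a signal, the fragment density over 8286 merged regions (GRCh38), which hold only regions that differ between genotypes in ATRA. The files do not give unscaled read totals, so intervals on normalized counts cover counting error only and approximately.

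Log2 values were undone to normalized counts. With limma 3.58.1 in R 4.3.3, one mean per group was fitted with a trended variance over the 13256 genes whose mean log2 value was over 3 in at least 1 group, and over the 6214 regions with a mean signal above 17.1 (the 25th percentile) as log2(signal + 1). P-values were adjusted by Benjamini and Hochberg over all features, with a threshold of 0.05. Genotype contrasts of single members, and genotype and ATRA contrasts of single member regions, carry no test. Shares and ratios within a library were compared by exact permutation tests. The fit was tested on simulated data. RNA libraries with the same replicate number deviated together (r of 0.229 to 0.638 over 18 pairs), so the numbers pair them, and the blocked value is given where it changes a call. The members and lists were chosen with earlier results of these data known. Named pathway genes are up to 6 per contrast with the largest change among those that passed, named neighbours are all tested genes within 1 Mb of the receptors, and genes alike are the 3 with the highest r. One item of the pathway list is counted but not reported here by name. Alternatives covered scaling, filters, pseudocounts, the replicate block and leaving out each library.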

Additional observations from a re-analysis of the deposited data

Results flagged for a closer look

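By the limma test of the difference itself, the ATRA responses of 2 of the 8 members and 2 of the 35 tested list genes differed between the genotypes. Over all tested genes 9.12% passed. With libraries paired by replicate number in limma, 3 members passed, TNFSF10 (adjusted p = 0.0448) being the one added. In that fit 9 list genes passed, beside 21.9% of all tested genes. The differences are HK3-null minus Cas9 control on the log2 scale. TNFRSF10D had a difference of 1.58 (adjusted p = 0.00365), falling in the control and rising in HK3-null cells. CFLAR had 0.60 (adjusted p = 0.00151), rising in both genotypes. DEDD had 0.53 (adjusted p = 0.0156). Groups of 2 or 3 libraries are too small for a check of single outlying libraries.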

How the results depend on the processing

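TNFRSF10D and CFLAR kept an adjusted p under 0.05 for the difference of responses, TNFRSF10D, CASP8 and CFLAR for both ATRA responses, and TNFRSF10C for the HK3-null response, under every RNA alternative fitted at that threshold. The alternatives changed values as follows, with causes not tested. Requiring a fold change of 2 left 1 member of 6 in the control (TNFRSF10C, counted here), 1 of 4 in HK3-null cells and 1 of 2 for the difference of responses. It left 5, 4 and 1 pathway list genes in those contrasts, 7 and 6 between genotypes in DMSO and ATRA, and 1276, 1871 and 370 of 5508, 6502 and 1209 genes over all. An unadjusted p under 0.05 with a fold change of 1.5 gave 13 and 16 list genes and 2782 and 3758 genes in the 2 ATRA contrasts, and 9 and 14 list genes between genotypes. Quantile normalization gave 5 list genes for the difference. TNFRSF10A (adjusted p = 0.114) and TNFRSF10B (adjusted p = 0.108) in the control were lost with limma and no filter, and TNFRSF10B (adjusted p = 0.0538) with chromosome medians subtracted.

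The chromosome 8 median in DMSO was 1.06 with 1 added to the counts, 1.02 after quantile normalization, 1.05 with genes of at least 50 counts and -0.002 after subtracting chromosome medians, and in ATRA 1.03 after quantile normalization and -0.011 after subtraction. With no filter it was 0.24 and 0.32, since genes near 0 then enter, and the receptors then lay 1.00, 3.06, 3.85 and 1.00 above it in DMSO and 1.04, 3.34, 3.92 and 2.49 in ATRA (TNFRSF10A to TNFRSF10D). The median of the neighbours was 0.97, 0.79 and -0.078 in DMSO and 1.26, 0.94 and -0.041 in ATRA (quantile, no filter, subtraction), and 1.22 in ATRA within 3 Mb.

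With the replicate block, list genes went from 19 to 29 between genotypes in DMSO and from 2 to 9 for the difference of responses, with 2898 genes over all. Beside the calls of TNFRSF10A, TNFSF10 and FADD given above, it changed no other call of an RNA member. ATAC numbers do not pair the libraries (r of -0.209 to 0.0539). A crossed pairing of the control ATAC libraries, chosen after seeing the data, gave 1228 regions over all that passed with ATRA in the control, against 1128 without it.

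Leaving out 1 library gave 2 to 4 list genes for the difference, -0.015 to 0.39 for TNFRSF10D over the chromosome 8 median in DMSO (0.39 without replicate 1 of control DMSO), 1.06 to 1.09 for that median in DMSO, and 0.97 to 1.12 and 0.98 to 1.29 for the neighbours in DMSO and ATRA. In ATAC it gave 495 to 1397 regions over all that passed between ATRA and DMSO in the control (541 without replicate 2 of ATRA, 675 and 495 without replicates 1 and 2 of DMSO). In HK3-null cells it gave 471 to 1166 (690 without replicate 1 of ATRA, 471 and 530 without replicates 1 and 2 of DMSO). The median change of receptor and CFLAR regions between genotypes in ATRA was 1.00 to 1.72. Signs that turned among values with no call, when 1 library was left out, included those of FADD in HK3-null cells (range -0.067 to 0.132) and of the differences for TNFRSF10A (-0.113 to 0.338), TNFRSF10C (-0.350 to 0.650) and CASP8 (-0.187 to 0.021), of TNFSF10 between genotypes in ATRA (-0.547 to 0.010), of CASP8 (-0.021 to 0.149 in DMSO, -0.126 to 0.082 in ATRA) and FADD (-0.052 to 0.153 in DMSO) between genotypes, and of the decoy share in the control (-3.94 to 0.18 percentage points).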
